A study of Mus musculus with 18 samples.

Results

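The genes of the DNA replication machinery were followed through early forelimb development in mouse embryos with and without deletion of Esco2 in the limb. The set holds 52 genes of 55487 gene identifiers counted, chosen by name for their role in origin recognition and licensing, the replicative helicase, the polymerases, the clamp, Okazaki fragment maturation, nucleotide supply, chromatin assembly and fork protection. The choice was made with earlier results of these data known, which limits what shares of members called against all genes can show. All 52 had enough counts to be tested, among 20118 genes that passed the filter on low counts. RNA was sequenced from forelimb buds in 6 groups of 3 libraries. Controls were Esco2fl/fl embryos at E9.5 (embryonic day), at E10.5 or at E11.5, and mutants were Esco2fl/fl;Prrx1-CreTg/0 at the same stages, so every embryo carried the Esco2 alleles flanked by loxP sites and only mutants carried Cre. An effect of Cre itself and an effect of Esco2 loss therefore cannot be told apart. Prrx1-Cre is active in limb mesenchyme, and a whole limb bud also holds ectoderm, blood vessels, blood, macrophages and muscle precursors. Individual limb buds are described by the labels, which do not say whether libraries came from separate embryos or litters, so a p-value here reflects the spread among these libraries, which may be technical. In bulk tissue, fewer cells of a type and less RNA per cell cannot be told apart.

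A cell copies its genome once per division. In G1, the origin recognition complex, Cdc6 and Cdt1 load the MCM helicase onto DNA, a step called licensing that geminin (Gmnn) blocks later in the cycle. In S phase, Cdc45, the GINS complex and Mcm10 turn the loaded helicase into a moving fork, polymerases copy both strands behind it, and histones and DNA methylation are restored on the daughter strands. Many of these genes are transcribed by E2F factors as cells enter S phase, so their RNA is commonly used as a measure of how actively a tissue proliferates. Esco2 acetylates cohesin while DNA is replicated and so helps to hold sister chromatids together.

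Total counts ran from 35034237 to 56230058 per library, and no member had fewer than 654 counts in any library. Control E9.5 replicate 1 stood apart, with 22294 genes detected against 24125 or more elsewhere, and mutant E10.5 replicate 3 had 1.96% of its counts in haemoglobin genes against 0.230% to 0.988% elsewhere. Esco2, counted over all its exons and so over any left undeleted, was at 25.0, 28.1 and 27.2 CPM (counts scaled to a common library size, with TMM factors) in control E9.5 libraries and at 15.3, 17.8 and 19.8 CPM in the mutants. At E10.5 it was at 29.4, 33.6 and 28.1 CPM in controls and 21.9, 18.9 and 22.3 CPM in mutants, and at E11.5 at 30.9, 20.6 and 30.9 and 22.4, 23.8 and 22.6 CPM. Mutant libraries lay below all controls at E9.5 and E10.5 and overlapped them at E11.5. The change passed the test at E10.5 (log2 change -0.53 ± 0.14 SE, adjusted p = 0.02 by edgeR's quasi-likelihood test), against -0.60 (adjusted p = 0.162) and -0.26 (adjusted p = 0.238) at E9.5 and E11.5. Esco2 no longer passed at E10.5 when control replicate 1 or 2 or mutant replicate 2 was left out (values of -0.55, -0.45 and -0.46). At E11.5 the value was -0.43 without control replicate 2 (adjusted p = 0.0339) and -0.17 without control replicate 1 or 3, and at E9.5 the change passed with DESeq2 and with a gene length trend removed. The forelimb factor Tbx5 was at 50.8 CPM or more in every library, and the hindlimb markers Tbx4 and Pitx1 summed to at most 16.1 CPM.

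Per length of annotated exon, the members differed widely in level. In control limb buds at E9.5, mean RPKM (CPM per kilobase of exon) ran from 6.12 to 193 with a median of 29.9. Rrm2, the regulated subunit of ribonucleotide reductase, stood highest at 193 ± 11.1 RPKM (SD, n = 3), next to Pcna, the sliding clamp that holds polymerases on DNA, at 185 ± 25.8 RPKM. These levels did not differ beyond their spread. Among helicase subunits, Mcm5 was at 136 ± 10.9, Mcm3 at 112 ± 7.23, Mcm7 at 110.4 ± 6.01, Mcm4 at 80.3 ± 2.38, Mcm6 at 73.3 ± 3.77 and Mcm2 at 58.9 ± 3.71 RPKM. RPKM divides by all annotated exon bases of a gene, which can exceed the length of the transcript made. Mcm2 had a mean of 16517 counts over the 18 libraries on 6956 exon bases, and Mcm3 15832 on 3752. The order of genes by RPKM therefore depends on the annotation and need not be that of RNA levels. The lowest by this measure were Orc4 and Orc5 of the origin recognition complex, at 6.12 ± 0.273 and 6.44 ± 0.969 RPKM, with 7458 and 6166 exon bases. Pcna has 2 annotated pseudogene copies and Tyms has 1, so reads of these genes could be split and their levels are less certain.

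**Figure D1:**
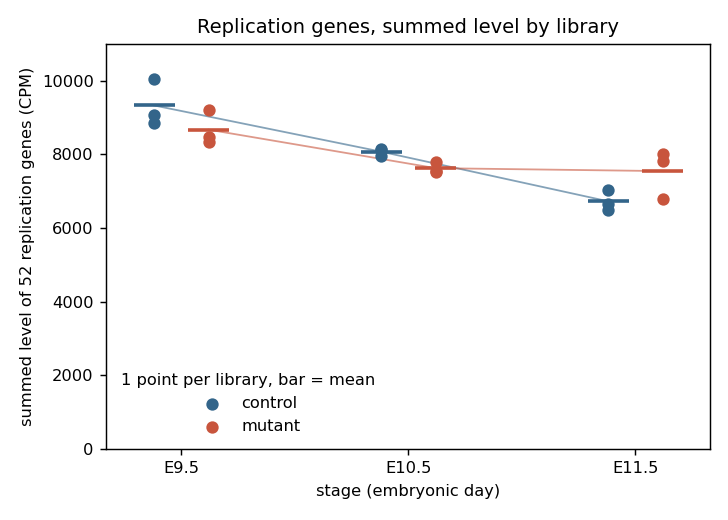
Summed CPM of the 52 replication genes (vertical axis, from 0) in each of 18 libraries by embryonic stage, with 1 point per library, blue for controls and red for mutants, and the group mean as a bar. The control mean went from 9329 to 8074 and 6726 CPM, and the mutant mean from 8671 to 7626 and 7546 CPM.

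Most replication genes fell from E9.5 to E11.5 in control limb buds. Their summed level was 10050, 8862 and 9076 CPM in controls at E9.5, 8137, 8121 and 7964 CPM at E10.5, and 7036, 6640 and 6501 CPM at E11.5. The 3 stages did not overlap, as the plot of summed levels shows, and neither did the E9.5 and E11.5 controls in 43 members taken singly (82.7%, all lower at E11.5), against 22.2% of all genes. Between E9.5 and E11.5, 40 of 52 members (76.9%) fell and none rose, with a median log2 change of -0.47 against 0.03 over all genes. Of all genes tested, 21.8% were called lower in this comparison. Leaving out control E9.5 replicate 1, which held the highest sum, gave 37 falls and a median of -0.37, and over every single library left out the count ran from 34 to 40. Of the 40, 31 passed under all 15 alternatives tried for this comparison. Of 25 mitosis genes 13 were called lower in it (21.8% of all genes) and 0 higher. Summed limb mesenchyme markers were at 1677 to 1874 CPM in E9.5 controls and 3036 to 3259 CPM in E11.5 controls. Macrophage markers were at 4.67 to 5.68 and 42.0 to 52.3 CPM, and endothelial markers at 365.5 to 433 and 326.5 to 374 CPM. The part of cell types in these falls was not tested.

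By role, all 3 licensing genes, all 3 single-strand binding genes, both Okazaki fragment genes and all 3 chromatin genes fell, as did 5 of 6 origin recognition, 5 of 6 helicase activation and 5 of 6 clamp genes. Of the polymerase alpha-primase genes, which lay the RNA-DNA primer, 1 of 4 fell. Of the fork protection genes 1 of 3 fell, of the other polymerase genes 4 of 5, of the nucleotide genes 4 of 5 and of the MCM subunits 4 of 6. The falls with the largest log2 changes were in Dut, which removes dUTP so that uracil is not built into DNA, in Gmnn and in Mcm10.

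Dut was at 486, 241 and 241 CPM at E9.5, 177, 170.0 and 174 CPM at E10.5 and 126, 129 and 124 CPM at E11.5. Replicate 1 at E9.5 was far above the others. The log2 change of Dut over the interval was -1.35 ± 0.19 (adjusted p = 2.18e-05) with that library and -0.94 without it. Gmnn, the inhibitor of Cdt1, changed by -1.05 ± 0.16 (adjusted p = 6.54e-05), with the same library at the top, and by -0.73 without it. Mcm10 did not depend on that library. It was at 147, 146 and 151 CPM at E9.5, 119, 111 and 107 CPM at E10.5 and 80.1, 74.1 and 69.1 CPM at E11.5, a log2 change of -0.99 ± 0.11 (adjusted p = 1.59e-06) and of -1.01 without it. The stages did not overlap for Mcm10. Fen1, the flap nuclease of Okazaki fragments, changed by -0.89 ± 0.12, Rrm2 by -0.89 ± 0.11 and Orc1, the ATPase of the origin recognition complex, by -0.85 ± 0.11 (adjusted p = 1.51e-05, 6.2e-06 and 1.18e-05).

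Further falls of over 0.6 on the log2 scale were those of Gins2 (-0.81) in the GINS complex, Cdc6 (-0.70) and Cdt1 (-0.63) in licensing, Rfc5 (-0.70) in the clamp loader, Rpa2 (-0.70) and Rpa3 (-0.61) in the single-strand binding protein RPA, Tipin (-0.69) in fork protection, Tk1 (-0.67), the thymidine salvage kinase, and Orc2 (-0.64). The helicase subunits Mcm3 (-0.56), Mcm5 (-0.55), Mcm7 (-0.45) and Mcm2 (-0.35) had smaller fitted falls, with adjusted p from 0.000192 to 0.0107. In the clamp and its loader Pcna (-0.54), Rfc3 (-0.52), Rfc4 (-0.50) and Rfc2 (-0.36) fell, and in helicase activation Gins4 (-0.52), Cdc45 (-0.49) and Gins1 (-0.35). Orc6 (-0.56), Orc5 (-0.53) and Orc4 (-0.28) fell in the origin recognition complex, and Chaf1b (-0.58), Uhrf1 (-0.54) and Chaf1a (-0.46) among the chromatin genes. Polymerase subunits that fell were Pold2 (-0.44), Pold3 (-0.36), Pold1 (-0.30), Pole2 (-0.30) and Pola2 (-0.22), and Lig1 (-0.33), Tyms (-0.32) and Rpa1 (-0.28) complete the 40. Mcm6 and Mcm4 were at -0.23 and -0.17 and did not pass. The catalytic subunits Pola1 and Pole of polymerases alpha and epsilon were at 0.15 ± 0.17 and 0.12 ± 0.20, also without a call. In all 12 members were not called. Without control E9.5 replicate 1, Gins1, Rfc2, Rpa3, Lig1 and Pole2 lost their calls and 2 of the 12 gained one. That library also moved several values: without it Tipin was at -0.40, Tk1 at -0.39, Rfc4 and Orc6 at -0.27, Pold2 at -0.26, Rpa3 and Lig1 at -0.20, Rfc2 at -0.17 and Gins1 at -0.16.

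Taken step by step, 16 members fell from E9.5 to E10.5 (12.5% of all genes were called lower) and 9 from E10.5 to E11.5 (2.89% of all genes). The steps share the E10.5 controls. These counts depended on single libraries. The first step gave 8, 7 and 5 falls without control E10.5 replicate 1, 2 or 3, and 26 without control E9.5 replicate 2. The second gave 3, 5 and 5 without those E10.5 libraries, and 3 and 1 without control E11.5 replicate 2 or 3. The falls of the first step were those of Dut (-0.89), Gmnn (-0.60), Gins2 (-0.57), Tipin (-0.45), Rfc5 (-0.41), Mcm10 (-0.40), Orc1 (-0.39), Rpa2 (-0.39), Orc5 (-0.38), Cdt1 (-0.38), Fen1 (-0.38), Rrm2 (-0.37), Pold2 (-0.37), Pcna (-0.34), Cdc6 (-0.30) and Chaf1b (-0.27), with adjusted p from 0.00214 to 0.0399. Without control E9.5 replicate 1, Dut was at -0.48, Gins2 at -0.31 and Gmnn at -0.28, and the calls of Pcna (-0.23), Fen1 (-0.21), Pold2 (-0.19), Chaf1b (-0.17), Rpa2 (-0.17), Tipin (-0.16) and Orc5 (-0.26) were lost. In the second step Mcm10 (-0.60), Rrm2 (-0.51), Fen1 (-0.51), Orc1 (-0.46), Orc2 (-0.42), Uhrf1 (-0.42), Cdc6 (-0.39), Mcm7 (-0.33) and Chaf1b (-0.31) fell, with adjusted p from 0.00234 to 0.0452.

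At E9.5, no member passed the test between mutants and controls (0.184% of all genes were called, 37 in number). By edgeR 11 of 52 members had an unadjusted p under 0.05, against 1996 of 20118 genes, all of them lower in mutants and each with an adjusted p of 0.497, and DESeq2 and limma-voom called 0. Fitted values were below 0 for 43 of 52 members, with a median log2 change of -0.12 against -0.01 over all genes, and -0.05 without control E9.5 replicate 1. In 7 members (13.5%) the mutant libraries lay below all controls, against 3.61% of all genes. Values ran from -0.47 ± 0.21 for Rpa3 to 0.25 ± 0.20 for Pole.

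By role at E9.5, the origin recognition complex ran from -0.11 for Orc6 to 0.04 for Orc2, and licensing from -0.39 for Gmnn through -0.04 for Cdt1 to -0.02 for Cdc6. The helicase lay between -0.14 for Mcm6 and 0.0081 for Mcm2, with Mcm5 at -0.12, Mcm3 at -0.11, Mcm4 at -0.10 and Mcm7 at -0.04. Helicase activators ran from -0.31 for Gins2 to 0.0068 for Gins3. None of these passed. The primase group lay between -0.15 for Prim2 and 0.15 for Pola1, the other polymerases between -0.24 for Pold2 and 0.25 for Pole, and the clamp group between -0.38 for Rfc4 and 0.01 for Rfc1, with Pcna at -0.11. Lig1, the ligase that seals Okazaki fragments, was at -0.24 and Fen1 at -0.25, and in RPA the values ran from Rpa3 to Rpa1 at -0.17. Nucleotide genes ran from -0.37 for Tk1 to -0.04 for Rrm2, with Tyms, the thymidylate synthase, at -0.24. Each group but fork protection had a median below 0. In that group Tipin was at -0.27, Timeless at 0.05 and Clspn, the checkpoint adaptor claspin, at 0.14, while the chromatin genes ran from -0.18 for Chaf1b through -0.07 for Chaf1a to 0.08 for Uhrf1.

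At E10.5, 2 members (3.85%) were lower in mutants and none was higher, against 6.63% of all genes called lower and 7.30% called higher. Rrm1, the large subunit of ribonucleotide reductase, was at 392, 406 and 364 CPM in controls and 309, 275 and 299.9 CPM in mutants. Lig1 was at 284, 281 and 284 CPM in controls and 216, 217 and 231 CPM in mutants. Every mutant library lay below every control for both genes. The log2 changes were -0.39 ± 0.11 for Rrm1 (adjusted p = 0.0192) and -0.36 ± 0.11 for Lig1 (adjusted p = 0.043). The call of Lig1 was lost when any 1 of the 6 libraries was left out, while its log2 change lay between -0.40 and -0.34 under all 16 alternatives. The call of Rrm1 was lost without control replicate 1 or 2 or mutant replicate 2 or 3, at values from -0.41 to -0.35, and with a gene length trend removed, at -0.23. Fitted to the E10.5 libraries alone, with genes filtered anew, 16 members were called, 4 of them higher. In that fit 6337 genes were called over all genes, 3114 of them higher.

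**Figure D2:**
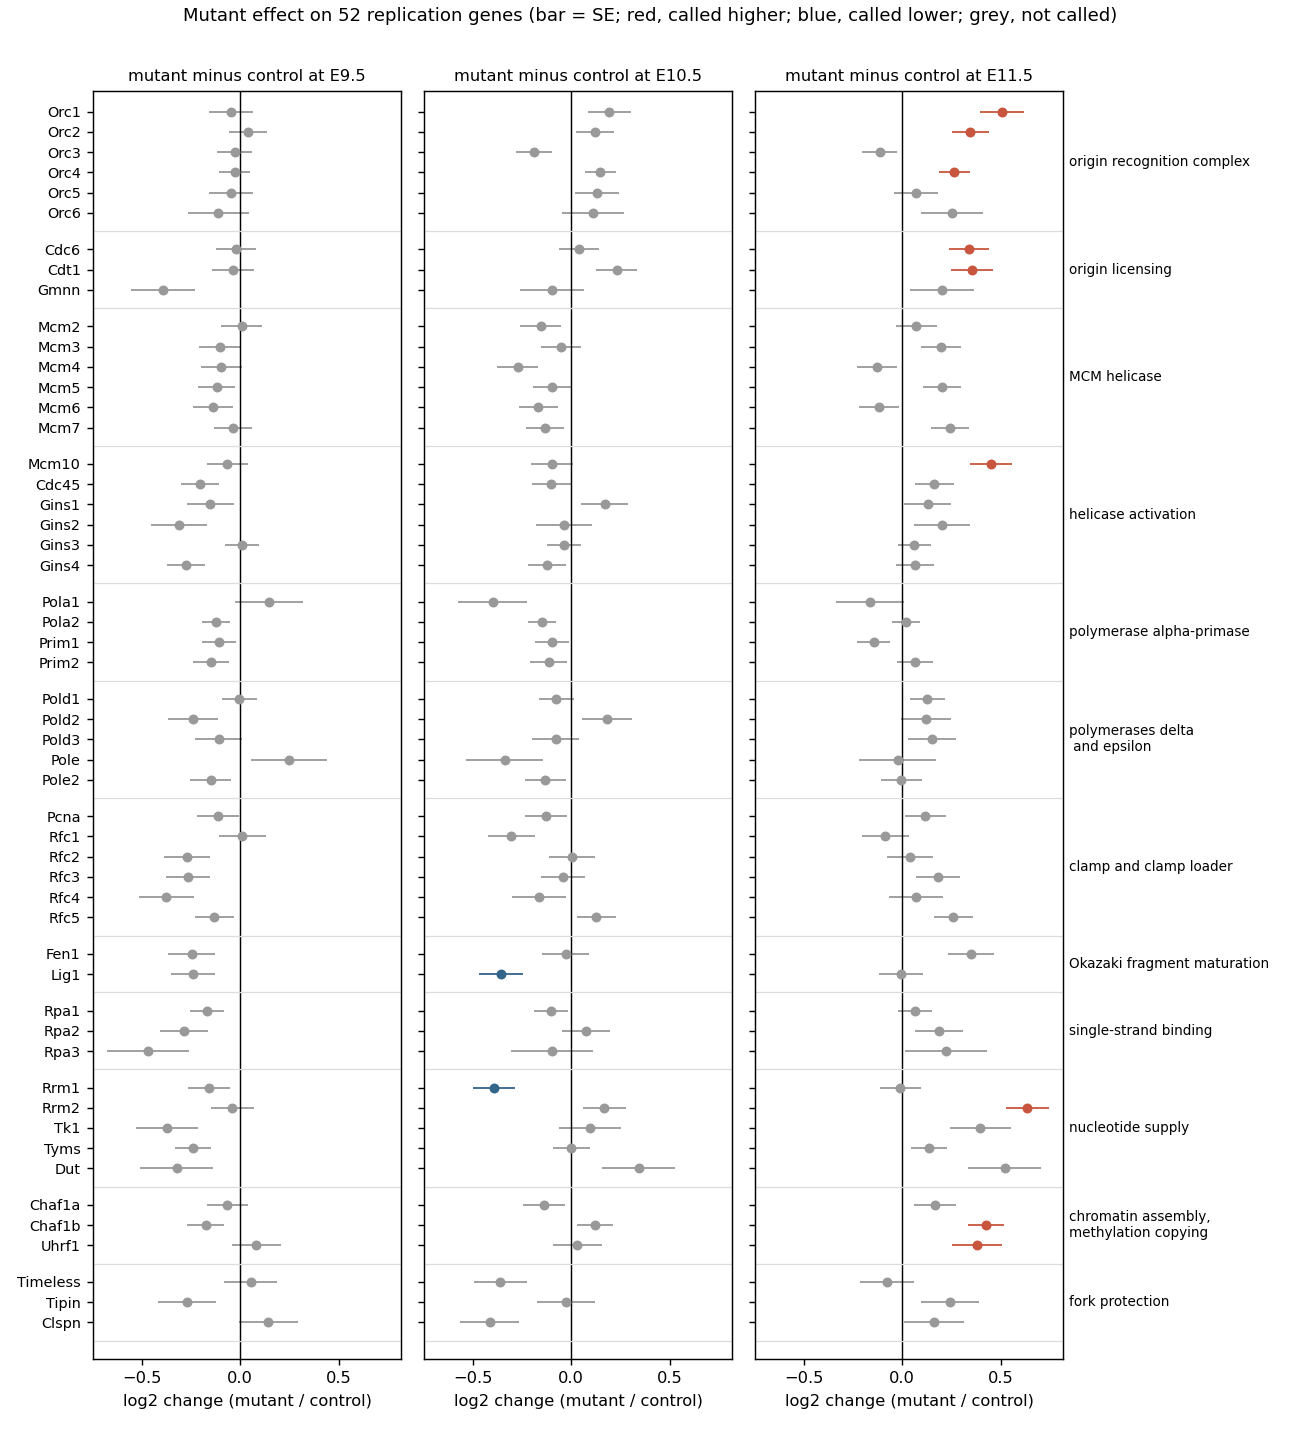
Log2 change, mutant over control, of each of the 52 replication genes (grouped by role) at each stage, with bars of 1 SE, red for genes called higher, blue for genes called lower and grey for genes not called. Calls number 0 at E9.5, 2 lower at E10.5 and 9 higher at E11.5.

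The median over the members at E10.5 was -0.09, against 0.02 over all genes. Mutant libraries lay below all controls for 21 members (40.4%) and above them for 8 (15.4%), against 23.1% and 23.0% of all genes. All 6 MCM subunits were among the 21, with values from -0.27 for Mcm4 and -0.17 for Mcm6 through -0.16 for Mcm2, -0.13 for Mcm7 and -0.10 for Mcm5 to -0.05 for Mcm3, none past the test. Fork protection held the lowest value of the set, -0.42 ± 0.15 for Clspn, beside Timeless at -0.36 and Tipin at -0.03. The highest was that of Dut, 0.34 ± 0.19 (adjusted p = 0.241).

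Most other groups at E10.5 spread on both sides of 0. Origin recognition ran from -0.19 for Orc3 to 0.19 for Orc1, and licensing from -0.10 for Gmnn through 0.04 for Cdc6 to 0.23 for Cdt1. Helicase activators ran from -0.12 for Gins4 to 0.17 for Gins1. The primase group lay wholly below 0, from -0.40 for Pola1 to -0.10 for Prim1. The other polymerases ran from -0.34 for Pole to 0.18 for Pold2, the clamp group from -0.30 for Rfc1 to 0.13 for Rfc5 with Pcna at -0.13, and RPA from -0.10 for Rpa1 to 0.07 for Rpa2. Fen1 was at -0.03, Rrm2 at 0.17, Tk1 at 0.09 and Tyms at 0.0011. The chromatin genes lay at -0.14 for Chaf1a, 0.03 for Uhrf1 and 0.12 for Chaf1b.

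At E11.5, 9 members (17.3%) were higher in mutants and none was lower, against 8.02% of all genes called higher and 9.52% called lower. They were Rrm2, Orc1, Mcm10, Chaf1b, Uhrf1, Cdt1, Orc2, Cdc6 and Orc4, with rises of 1.20-fold to 1.55-fold. The median over all 52 was 0.16 against 0.01 over all genes, and mutant libraries lay above all controls for 19 members (36.5%) and below them for 1, against 19.8% and 20.7% of all genes. By role, 3 of 6 origin recognition genes, 2 of 3 licensing genes, 1 of 6 helicase activators, 1 of 5 nucleotide genes and 2 of 3 chromatin genes rose. None of the 6 MCM subunits, 4 primase genes, 5 other polymerase genes, 6 clamp genes, 2 Okazaki fragment genes, 3 RPA genes or 3 fork protection genes passed the test. Without control E11.5 replicate 2, control E11.5 replicate 3 or mutant E11.5 replicate 3, 4 members passed each time, namely Rrm2, Orc1, Mcm10 and Chaf1b. These 4 passed under all 15 alternatives, and the other 5 lost their call under 4 to 7 of them.

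Rrm2 (chromosome 12, 24708241 to 24714146, + strand, mm10) showed the largest change. It was at 334, 282 and 252 CPM in controls and 409.9, 435 and 502 CPM in mutants, with no overlap. The log2 change was 0.64 ± 0.11 (1.55-fold, adjusted p = 0.000759). Its partner Rrm1 was at 356, 305 and 314 CPM in controls and 273, 329 and 368 CPM in mutants, which overlapped (log2 change -0.0093 ± 0.11, 95% interval from -0.23 to 0.21). Orc1 (chromosome 4, 108579423 to 108614833, + strand) was at 21.8, 19.1 and 16.2 CPM in controls and 26.2, 25.0 and 29.9 CPM in mutants, so that its lowest mutant library was above the highest control (log2 change 0.51 ± 0.11, adjusted p = 0.00465).

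Mcm10 (chromosome 2, 4989714 to 5012791, - strand), which joins the helicase as it is activated, was at 80.1, 74.1 and 69.1 CPM in controls and 82.4, 107 and 116 CPM in mutants. The groups came close but did not overlap, since mutant replicate 1 was only just above the highest control (log2 change 0.45 ± 0.11, adjusted p = 0.00731). Chaf1b (chromosome 16, 93883901 to 93906115, + strand), a subunit of the CAF-1 complex that places histones on new DNA, was at 62.0, 61.1 and 59.0 CPM in controls and 73.8, 84.4 and 86.4 CPM in mutants. The controls lay within a narrow range and all mutants above it (log2 change 0.43 ± 0.09, adjusted p = 0.00425). Uhrf1, which brings the maintenance methyltransferase to newly copied DNA, was at 422, 364 and 362 CPM in controls and 434, 553 and 508 CPM in mutants (log2 change 0.38 ± 0.13, adjusted p = 0.0464). Mutant replicate 1 was again the lowest of its group.

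**Figure D3:**
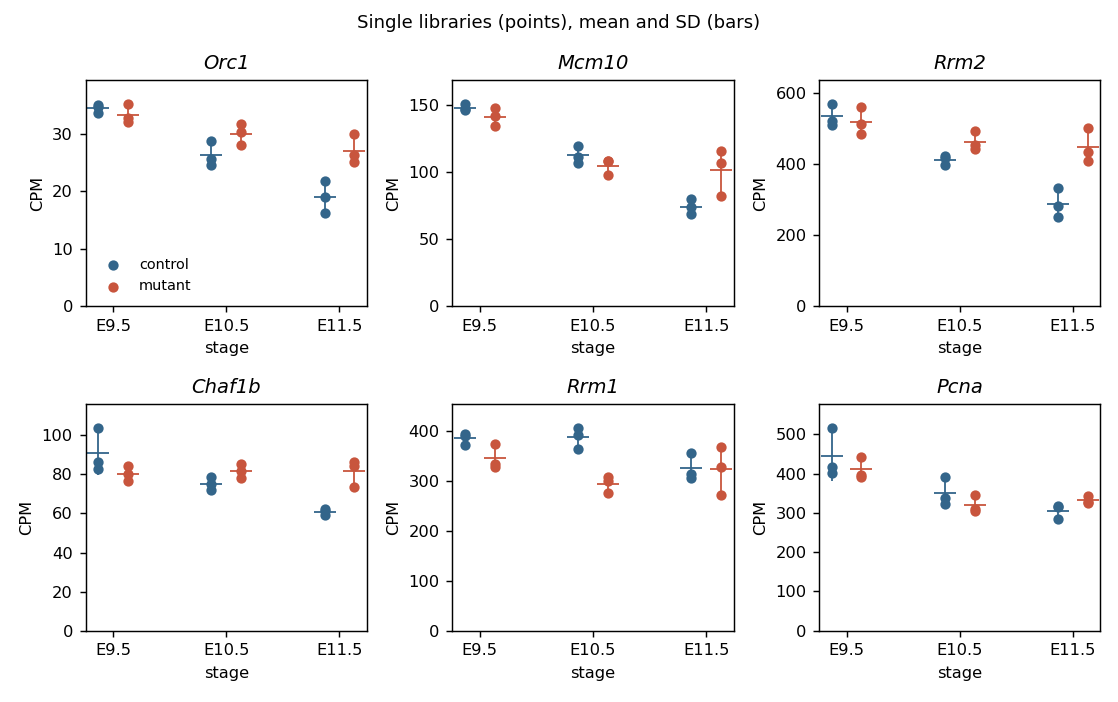
CPM (vertical axes, from 0) of Orc1, Mcm10, Rrm2, Chaf1b, Rrm1 and Pcna in single libraries by stage, blue for controls and red for mutants, with group means and bars of 1 SD. In the first 4 genes the E11.5 mutants lie above the E11.5 controls, and Rrm1 is called lower in mutants at E10.5 alone.

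Both loading factors of the helicase also rose. Cdt1 was at 104, 94.6 and 85.0 CPM in controls and 116, 120.1 and 127 CPM in mutants without overlap (log2 change 0.35 ± 0.11, adjusted p = 0.0277). Cdc6 was at 71.6, 59.4 and 56.8 CPM in controls and 69.6, 84.0 and 84.2 CPM in mutants, and here mutant replicate 1 lay below control replicate 1 (log2 change 0.34 ± 0.10, adjusted p = 0.0287). Orc2 and Orc4 changed by 0.35 ± 0.10 and 0.26 ± 0.08 (adjusted p = 0.019 and 0.0284). The calls of Cdc6 and Cdt1 were each lost without control replicate 2 or 3 or mutant replicate 2 or 3, that of Orc4 without any library but mutant replicate 2, that of Uhrf1 without control replicate 2 or 3 or mutant replicate 2 or 3, and that of Orc2 in 3 of 6 such fits.

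Dut and Fen1 came close to the threshold. Dut was at 126, 129 and 124 CPM in controls and 178, 169.6 and 197 CPM in mutants, and Fen1 at 116, 104 and 103 CPM and 122, 144 and 146 CPM. Neither overlapped (log2 change 0.52 ± 0.19, adjusted p = 0.0635, and 0.35 ± 0.12, adjusted p = 0.0509). In the helicase, Mcm7 was at 0.24 ± 0.10, Mcm5 at 0.20, Mcm3 at 0.20, Mcm2 at 0.07, Mcm6 at -0.12 and Mcm4 at -0.13. The licensing inhibitor Gmnn was at 0.20 ± 0.16, Gins3 was the lowest helicase activator at 0.06, and Orc3 the lowest origin recognition gene at -0.12. Pcna was at 0.12 ± 0.11, between Rfc1 at -0.09 and Rfc5 at 0.26 of its loader. None of these passed.

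Among the remaining genes at E11.5, the primase group ran from -0.16 for Pola1 to 0.07 for Prim2, and Prim1 (-0.15) was the 1 member whose mutant libraries lay below all controls. The other polymerases ran from -0.02 for Pole to 0.15 for Pold3, and RPA from 0.06 for Rpa1 to 0.22 for Rpa3. Lig1 was at -0.0088, Tk1 at 0.40 ± 0.16 (adjusted p = 0.0918), Tyms at 0.13 and Chaf1a, the large CAF-1 subunit, at 0.17. Fork protection ran from -0.08 for Timeless through 0.16 for Clspn to 0.24 for Tipin.

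Promoter windows of 300 bases, from 250 before to 50 after the gene start, were taken from RefSeq (GRCm38.p6) for 43 of the 52 members, using the first listed window of a gene. Prim2, Pole, Tipin, Gins1, Gins2, Gins4, Gmnn, Mcm4 and Rfc2 were not matched. The windows of Cdc6, Dut, Mcm7 and Timeless lay wholly inside the gene as counted, so the RefSeq gene start used there was not the outermost one. Each window was searched on both strands for E2F-type letters (TTTGGCGC, TTTCCCGC, TTTCGCGC or TTTGCCGC), for CCAAT, the letters bound by NF-Y, and for TTTGAA, the letters of the cell cycle homology region found at genes of late cell cycle. E2F-type letters were in 15 of 43 members (34.9%) and in 626 of 27025 promoters of the genome (2.32%). CCAAT was in 25 of 43 (58.1%) against 37.9%, and TTTGAA in 4 of 43 (9.3%) against 18.1%. A match is a description of the letters, not of a bound site. Of the 15 members with E2F-type letters 3 rose at E11.5, and of the 28 without them 6 did, with the same median log2 change of 0.16.

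The windows printed here belong to the 3 risen members with E2F-type letters (Orc1, Cdc6 and Cdt1), to Mcm6, which had 3 matches, the highest number, and to Rrm2, which rose the most and had none. E2F-type letters and CCAAT, on either strand, are in capitals. Relative to the RefSeq gene start, the E2F-type letters start 27 bases before it in Orc1, 138 bases before it in Cdc6 and 32 bases after it in Cdt1. In Cdc6 they lie inside the gene as counted, which starts at 98907801. In Mcm6 the matches on opposite strands at 110 and 106 bases before the start overlap, and the third is at 47 bases. Each window is given 5′ to 3′ on the strand of its gene: Orc1 at chr4:108579204-108579503 (+), Cdc6 at chr11:98907901-98908200 (+), Cdt1 at chr8:122567765-122568064 (+), Mcm6 at chr1:128359656-128359955 (-) and Rrm2 at chr12:24708004-24708303 (+).
Orc1: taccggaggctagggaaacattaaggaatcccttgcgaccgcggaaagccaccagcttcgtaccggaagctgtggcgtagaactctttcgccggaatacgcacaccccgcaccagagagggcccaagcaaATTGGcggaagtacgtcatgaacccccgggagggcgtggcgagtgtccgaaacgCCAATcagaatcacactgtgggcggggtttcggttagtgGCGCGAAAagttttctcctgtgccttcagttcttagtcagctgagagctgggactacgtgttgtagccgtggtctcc
Cdc6: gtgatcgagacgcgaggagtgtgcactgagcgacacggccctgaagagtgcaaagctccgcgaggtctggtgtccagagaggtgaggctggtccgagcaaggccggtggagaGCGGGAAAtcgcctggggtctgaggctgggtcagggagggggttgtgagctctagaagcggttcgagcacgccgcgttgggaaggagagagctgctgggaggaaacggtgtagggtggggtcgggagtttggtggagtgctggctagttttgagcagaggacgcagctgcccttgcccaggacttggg
Cdt1: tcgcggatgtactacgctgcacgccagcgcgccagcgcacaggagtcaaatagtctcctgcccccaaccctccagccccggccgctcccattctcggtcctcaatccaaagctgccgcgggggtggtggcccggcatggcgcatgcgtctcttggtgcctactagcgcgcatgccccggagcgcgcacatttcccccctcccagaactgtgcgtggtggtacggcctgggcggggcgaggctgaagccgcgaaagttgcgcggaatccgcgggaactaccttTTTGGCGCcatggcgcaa
Mcm6: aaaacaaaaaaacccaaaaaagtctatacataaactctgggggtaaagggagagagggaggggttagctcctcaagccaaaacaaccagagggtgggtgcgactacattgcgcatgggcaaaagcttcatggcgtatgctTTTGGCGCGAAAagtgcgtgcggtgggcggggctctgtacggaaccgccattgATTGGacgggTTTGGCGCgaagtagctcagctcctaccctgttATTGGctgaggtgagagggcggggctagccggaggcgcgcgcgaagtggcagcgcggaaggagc
Rrm2: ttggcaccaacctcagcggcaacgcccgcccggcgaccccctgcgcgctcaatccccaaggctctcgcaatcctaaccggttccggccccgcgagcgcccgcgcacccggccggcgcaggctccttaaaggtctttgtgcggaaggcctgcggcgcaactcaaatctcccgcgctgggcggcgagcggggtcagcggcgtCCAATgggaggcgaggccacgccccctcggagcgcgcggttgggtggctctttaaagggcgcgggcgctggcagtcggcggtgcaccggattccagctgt

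In mutants the decline with stage passed the test in few members. The summed level of the mutants was 8464, 9210 and 8340 CPM at E9.5, 7790, 7529 and 7559 CPM at E10.5, and 6791, 7832 and 8014 CPM at E11.5. The E10.5 and E11.5 mutants overlapped, and replicate 1 was the lowest at E11.5 and lay within the control range of that stage. From E9.5 to E11.5, 5 members (9.62%) fell in mutants, Mcm10, Orc5 (-0.41), Orc2 (-0.33), Cdc6 (-0.33) and Rfc5 (-0.31), with 7.12% of all genes called lower and a median log2 change of -0.17. In 22 members (42.3%) the E11.5 mutants lay below all E9.5 mutants, against 18.2% of all genes. The count was 1 without mutant E9.5 replicate 2 or mutant E11.5 replicate 1, 3 without mutant E9.5 replicate 3 or mutant E11.5 replicate 2, and 10 without mutant E11.5 replicate 3. Mcm10 changed by -0.48 ± 0.11 in mutants (adjusted p = 0.00368) and passed under all 15 alternatives.

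The difference between both declines was tested as the mutant effect at E11.5 minus that at E9.5, and 5 members (9.62%) passed, all in the direction of less decline in mutants, with 2.81% of all genes called in that direction. They were Chaf1b (0.60 ± 0.13, adjusted p = 0.014), Rrm2 (0.68 ± 0.15, adjusted p = 0.017), Fen1 (0.60 ± 0.17, adjusted p = 0.0431), Orc1 (0.55 ± 0.16, adjusted p = 0.0453) and Tk1 (0.77 ± 0.22, adjusted p = 0.0474). The fitted value was above 0 for 45 of 52 members, with a median of 0.30 against 0.01 over all genes, and 0.20 without control E9.5 replicate 1. Without that library 9 members passed, and the values of Tk1 and Fen1 were 0.47 and 0.42. The count was 17 and 8 without control E9.5 replicate 2 or 3, 2 and 1 without control E11.5 replicate 2 or 3, and 2 without any single mutant E9.5 library or without mutant E11.5 replicate 2 or 3. Fitted to E9.5 and E11.5 libraries alone, 0 passed. Chaf1b passed in all 12 fits that left out 1 library and Rrm2 in 11, the exception being the fit without control E11.5 replicate 3.

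**Figure D4:**
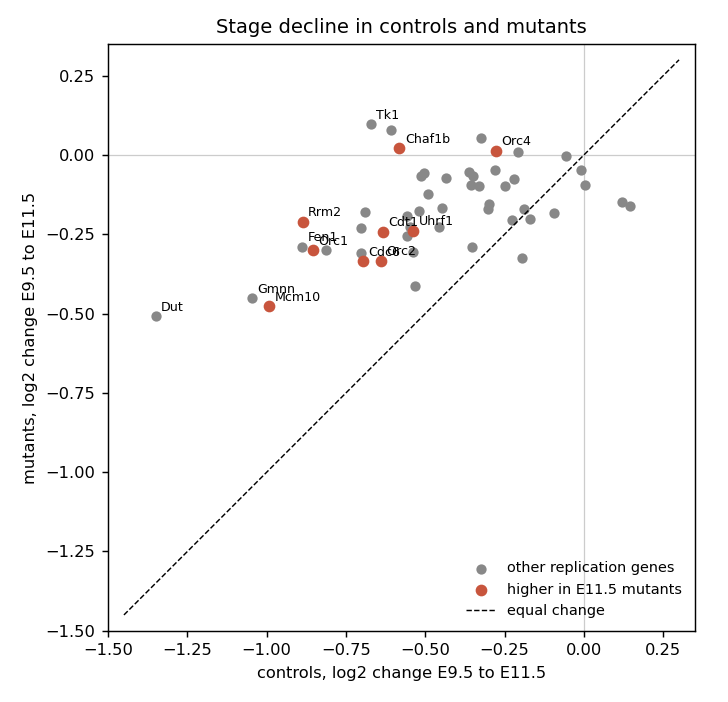
Log2 change from E9.5 to E11.5 of each replication gene in controls (horizontal axis) and in mutants (vertical axis), with a dashed line of equal change and red points for the 9 genes higher in mutants at E11.5, a comparison that uses the same E11.5 libraries. Of 52 points, 45 lie above the line.

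Chaf1b and Tk1 show the contrast by library. Chaf1b was at 104, 83.0 and 86.1 CPM in E9.5 controls and 80.3, 84.2 and 76.5 CPM in E9.5 mutants, against the E11.5 values above. It fell in controls (-0.58 ± 0.09) and stood at 0.02 ± 0.09 in mutants. Tk1 was at 166, 97.6 and 101 CPM in E9.5 controls, where replicate 1 was far above the others, at 94.6, 96.6 and 90.4 CPM in E9.5 mutants, at 77.6, 80.1 and 71.1 CPM in E11.5 controls and at 95.9, 113 and 91.8 CPM in E11.5 mutants. Without control E9.5 replicate 1 its fall in controls was -0.39. Between neighbouring stages no member passed edgeR's test of a difference in the mutant effect. From E9.5 to E10.5 there were 0 calls (2.22% of all genes) with 8 members at an unadjusted p under 0.05, against 4422 of 20118 genes, and from E10.5 to E11.5 there were 0 calls (0.0746% of all genes) with 9, against 1705 of 20118. DESeq2 and limma-voom also called 0 in both. The highest value of the second step was 0.58 ± 0.21 for Clspn (adjusted p = 0.431).

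Genes that work beside the 52 were read from further lists. Of 36 other replication genes, 23 fell in controls from E9.5 to E11.5 and none rose, against 21.8% of all genes called lower. Among the 23 was Pclaf (-0.71), the Pcna-associated factor, with an adjusted p of 5.66e-05 by edgeR. In mutants 0 of the 36 were called at E9.5 and E10.5. At E9.5, 7 had an unadjusted p under 0.05 by edgeR, against 1996 of 20118 genes. At E10.5, 3 did, against 5626 of 20118 genes. At E11.5, 2 rose, a smaller share than the 8.02% of all genes called higher at that stage. These were Dbf4 (0.32 ± 0.08, adjusted p = 0.0106), the activator of the Cdc7 kinase that fires origins, and Recql4 (0.40 ± 0.12, adjusted p = 0.0324), a helicase needed for initiation. Of 23 genes of the E2F and RB families with S phase cyclins, 0 were called at E9.5. At that stage 3 had an unadjusted p under 0.05 by edgeR, against 1996 of 20118 genes. In this list 3 rose and 1 fell at E10.5 (7.30% and 6.63% of all genes), and 6 rose at E11.5 (8.02% of all genes).

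Ccne1, the cyclin that drives entry into S phase, had the largest of these rises at E11.5, from 75.3, 65.0 and 61.3 CPM in controls to 136, 117 and 142 CPM in mutants, with no overlap (0.97 ± 0.15, adjusted p = 0.000317). Tfdp1, the partner of E2F proteins, changed by 0.45 ± 0.07, E2f4 by 0.44 ± 0.09, and Mybl2 by 0.32 ± 0.08 (adjusted p = 0.000341, 0.00272 and 0.0102). E2f5 and E2f2 made up the 6. At E10.5 Tfdp1, Rb1 and E2f4 rose by 0.31, 0.76 and 0.32, and Rbl1 changed by -0.46. Of 25 mitosis genes, 6 fell in mutants at E10.5 (6.63% of all genes), Ndc80 (-0.41), Top2a (-0.64), Kif11 (-0.51), Ttk (-0.36), Kif20a and Nuf2, and 2 rose at E11.5, Mad2l1 (0.33) and Plk1 (0.29), which is near the 8.02% of all genes.

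Cell type markers and p53 targets moved with genotype in the same libraries. Cdkn1a, the p53 target that encodes the cyclin-dependent kinase inhibitor p21, changed by 2.38 ± 0.14, 3.00 ± 0.14 and 2.12 ± 0.13 at the successive stages, and 9, 16 and 14 of 18 p53 targets rose. Of all genes, 0.184% were called in either direction at E9.5, and 7.30% and 8.02% were called higher at E10.5 and E11.5. Beside the E11.5 rises, 6 of 8 limb mesenchyme markers fell, their sum being 3036 to 3259 CPM in controls and 1233 to 1429 CPM in mutants. Macrophage markers rose in 7 of 8, from sums of 42.0 to 52.3 CPM to 98.1 to 206 CPM, surface ectoderm markers in 8 of 10, from 346 to 596 CPM to 689 to 896 CPM, and muscle precursor markers in 2 of 5, from 86.0 to 102 CPM to 182 to 258 CPM. Endothelial markers rose in 2 of 8 (327 to 374 CPM against 324 to 401 CPM), and erythroid markers in 0 of 10 (3527 to 4964 CPM against 3945 to 9119 CPM). Of all genes, 8.02% were called higher and 9.52% lower at E11.5. Fitted values went against their lists for Msx1 of the mesenchyme (0.11), Krt14 of the ectoderm (-0.88) and 3 of 8 endothelial markers, none of them called.

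Beside the E10.5 values, 4 of 8 mesenchyme markers fell (2223 to 2395 CPM in controls, 986 to 1234 CPM in mutants). At that stage 9 of 10 ectoderm markers (335 to 498 CPM against 669 to 1000.0 CPM), 4 of 8 endothelial (356 to 401 CPM against 433 to 499.8 CPM), 8 of 10 erythroid (2983 to 6176 CPM against 6384 to 20030 CPM), 6 of 8 macrophage (20.6 to 26.1 CPM against 41.9 to 71.4 CPM) and 1 of 5 muscle precursor markers rose (69.2 to 76.1 CPM against 106 to 179 CPM). Of all genes, 7.30% were called higher and 6.63% lower at E10.5. Fitted values went against their lists for Msx1 (0.44), with all mutants above all controls, and for Krt14 (-0.88). The same held for 1 of 8 endothelial and 2 of 5 muscle precursor markers, and none of these was called. At E9.5 none of these cell type lists held a called gene (0.184% of all genes were called). No marker was at 0 in any library at E10.5 or E11.5, and at E9.5 C1qa, C1qb, C1qc, Mrc1, Myf5 and Myod1 were at 0 in at least 1 library. The part of these cell types in the replication gene values was not tested.

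**Figure D5:**
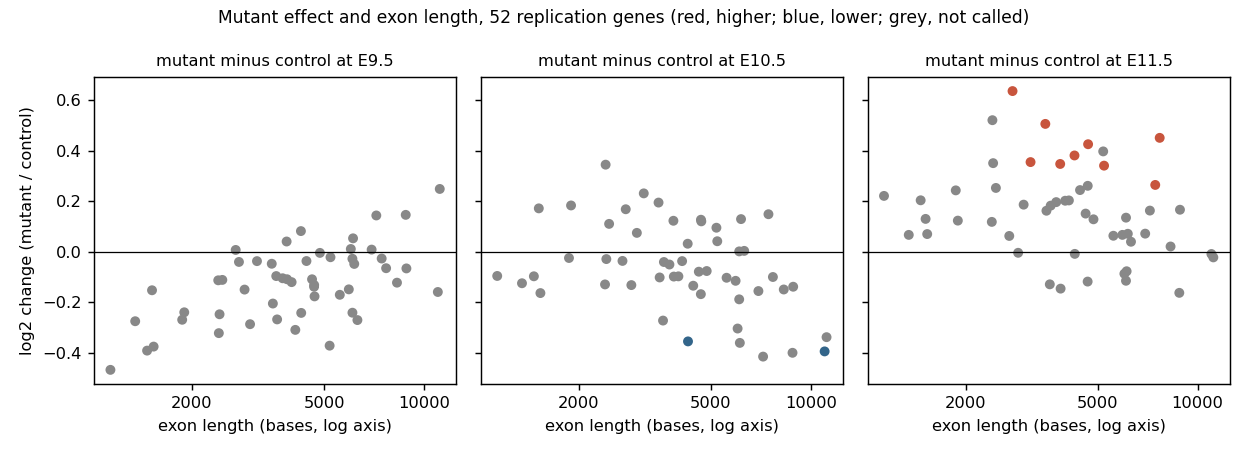
Log2 change, mutant over control, of each of the 52 replication genes (vertical axis) against its exon length in bases (horizontal log axis) at the 3 stages, red for genes called higher, blue for lower and grey for not called. Short genes lie lower at E9.5 and higher at E10.5 and E11.5.

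Exon length also moved with the values. Within libraries, Spearman's correlation of level with exon length over all genes, each gene taken relative to its mean over the libraries of that stage, was -0.442 in control E9.5 replicate 1 and 0.32 and 0.0904 in the other E9.5 controls. It was 0.0907 to 0.192 in E10.5 controls and -0.21 to -0.12 in E10.5 mutants. The mitochondrial share of counts was 0.531% to 0.758% in E10.5 controls and 0.987% to 1.08% in E10.5 mutants, and 0.651% to 0.728% and 0.695% to 0.995% at E11.5. The part of these library differences in the replication gene values was not tested beyond the removal of the length trend. Across the 52 members, Spearman's correlation of log2 change with exon length was 0.495 at E9.5, -0.392 at E10.5 and -0.28 at E11.5, and across all 20118 genes it was 0.36, -0.198 and -0.227. Genes share libraries and are not independent replicates, so these are descriptions. Members shorter than the median exon length of 4263.5 bases had a median log2 change of -0.15 at E9.5 and 0.20 at E11.5, against -0.07 and 0.07 in longer members. With the trend removed from each library, 12 members were higher in mutants at E11.5, the 9 above among them, with a median of 0.18, and 0 were called at E10.5. The fall in controls from E9.5 to E11.5 then held 44 members with a median of -0.57.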

How the data were processed

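RNA from 18 forelimb bud libraries was read as the authors' deposited counts per gene. Per the submitters' processing notes, cutadapt, STAR, featureCounts and limma were used with mm10, and per the file headers featureCounts 1.6.4 counted reverse-stranded read pairs over exons of GENCODE M22. The authors also deposited log2 FPKM values, used as an alternative. The 35034237 to 56230058 counts per library were filtered to 20118 genes (filterByExpr), scaled by TMM and tested with edgeR 4.0.16 (quasi-likelihood, robust, 6 group means, common biological coefficient of variation 0.231; R 4.3.3), with Benjamini-Hochberg adjustment over all genes and a threshold of 0.05. Steps were tested on simulated data. DESeq2 1.42.0, limma 3.58.1, other scalings and filters, a replicate block, a length trend and left-out libraries were alternatives. Members and lists were chosen with earlier results of these data known. Both E9.5 to E11.5 comparisons within a genotype, and the fit without both libraries that stood apart, were added after seeing the data. Text names every member past the threshold (at most 30 by smallest adjusted p), each role's highest and lowest member, fixed core genes and, of other lists, genes among the 4 smallest adjusted p. Some further genes were named after their values were seen. Chtf8 was left out because its symbol was ambiguous. A gene that this rule would name is not reported here.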

Additional observations from a re-analysis of the deposited data

Results flagged for a closer look

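The mutant effect at E11.5 differed from that at E9.5 in 5 members, by edgeR's test of that difference. The difference in log2 change was 0.55 for Orc1 (adjusted p = 0.0453), 0.77 for Tk1 (adjusted p = 0.0474), 0.68 for Rrm2 (adjusted p = 0.017), 0.60 for Chaf1b (adjusted p = 0.014) and 0.60 for Fen1 (adjusted p = 0.0431). Leaving out the first control library of E9.5 gave 0.56 for Orc1, 0.47 for Tk1, 0.62 for Rrm2, 0.49 for Chaf1b and 0.42 for Fen1. None of the 5 calls held under all 21 alternatives tried. The call was lost in 13 of them for Orc1, 12 for Fen1, 11 for Tk1, 2 for Rrm2 and 1 for Chaf1b.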

How the results depend on the processing

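No called result turned direction under the alternatives tried, and the median change in mutant effect from E9.5 to E10.5, 0.07, was -0.05 without control E9.5 replicate 1. The number of members called was 0 at E9.5 under all of them. At E10.5, 2 members became 1 with DESeq2 size factors, with no filter or with limma on log2 FPKM, 0 with the length trend removed, 16 with E10.5 fitted alone, 13 with libraries whose names share a first number and 8 without both libraries that stood apart, and leaving out 1 library gave 0 to 1. At E11.5, 9 became 5 with no filter and 17 without both libraries, and leaving out 1 gave 4 to 12. The control step from E9.5 to E10.5 went from 16 to 27 with the length trend removed (5 to 26 with 1 library left out), and that from E10.5 to E11.5 from 9 to 14 with DESeq2, 25 with those stages alone and 28 without both libraries (1 to 8 with 1 left out). The control fall from E9.5 to E11.5 held 34 to 40 members with 1 left out and 36 to 44 under the other alternatives. The mutant decline went from 5 to 10 with DESeq2, 3 with no filter, 2 with those stages alone, 12 with the length trend removed and 19 without both libraries (1 to 10 with 1 left out). The difference between both declines went from 5 to 9 with DESeq2, with the length trend removed or without both libraries, 3 with no filter, 2 with limma-voom and 0 with those stages alone (1 to 17 with 1 left out), and that from E9.5 to E10.5 gave 0 to 1. The counts of this paragraph take calls in both directions. Calls over all genes also changed with the setting, as given above for E10.5 fitted alone, so a changed count need not be particular to the members. The share of all genes is not given for each setting. These counts therefore show only how far the calls moved and are not a result about the members. The cause was not tested. Labels do not say that a replicate number is shared between groups, and numbers were not used as pairs in the main fit. Of 9 same-numbered pairs 3 correlated over 0.1 (range -0.148 to 0.184), and 4 controls matched their own number best. At each stage some control and mutant library names share a first number across different replicate numbers. The labels do not give the meaning of that number, and the text holds no correlations for those pairs. The correlations above cannot settle whether a litter or batch was shared. With a replicate block, 0 members were called at E10.5, 7 at E11.5, 40 in the control decline and 3 in the difference between declines. With 3 libraries a group, small changes could be missed.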
